A study of Mus musculus with 2 samples.

Results

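Cortical interneurons are the inhibitory cells of the cortex. They release GABA and fall into subtypes that are told apart by the genes they express. Described here are 10 protein-coding genes that mark these subtypes or their origin, chosen by name: Pvalb, Sst, Vip, Lamp5, Adarb2, Lhx6, Dlx1, Dlx2, Dlx5 and Dlx6. All 10 were found among 21884 protein-coding genes of unique symbol in the GENCODE M21 basic annotation of the mouse build GRCm38.p6, which the files call mm10. For each gene, open chromatin was taken from the gene body with 10 kb added on each side, here called its window. A peak within 1 kb of one of the gene's own annotated start sites was called a promoter peak.

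The data were 2 DNase-seq libraries, replicates 1 and 2, from the left cerebral cortex of adult male B6CASTF1/J mice aged 18 to 20 months. B6CASTF1/J is the F1 cross of C57BL/6 mice with CAST, a strain derived from wild mice. DNase-seq cuts nuclear DNA with the enzyme DNase I, so that open, accessible stretches collect many cuts. The libraries form 1 group with no treatment and no comparison group, and their labels share a donor entry, so the spread between them may be technical. Replicate 1 held 73221 peaks in its shorter, main list and replicate 2 held 111105. The longer, wider lists held 120015 and 178564 regions. The authors also listed 264450 and 385637 footprints, short stretches inside open chromatin that are protected from cutting. Each peak carries a signal, the authors' own value per peak, whose scaling is not stated. It was used to describe and rank peaks within a library, and a value with ± is the mean and SD of both libraries (n = 2).

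Parvalbumin and somatostatin cells arise mainly from the medial ganglionic eminence of the embryo, where the homeobox factor Lhx6 marks them, and Vip and Lamp5 cells arise mainly from the caudal ganglionic eminence, where many express Adarb2. The Dlx homeobox factors act earlier, in the precursors of nearly all forebrain GABA neurons. Interneurons are a minority of cortical cells. In bulk tissue, fewer cells of a type and less open chromatin per cell cannot be told apart, and this holds for every value below.

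Promoter peaks were found at only some of these genes. Pvalb, Dlx5, Adarb2 and Lamp5 had a main-list promoter peak in both libraries, and Dlx6 had one in replicate 2. Sst, Vip, Lhx6, Dlx1 and Dlx2 had none in either main list. The counts were 4 of 10 in replicate 1 and 5 of 10 in replicate 2, while 60.7% and 61.2% of all protein-coding genes had a promoter peak. Over all genes, 58.7% had one in both libraries and 36.8% in neither, beside 4 and 5 of the 10.

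The promoter peaks were also weaker than most promoter peaks. The strongest promoter peak of Pvalb had a signal of 0.963 in replicate 1 and 0.554 in replicate 2, that of Dlx5 1.00 and 1.00, that of Adarb2 1.15 and 2.09, and that of Lamp5 1.13 and 1.65. Among all genes with a promoter peak the median of the strongest was 3.82 and 2.88. Each of the 4 genes stood below that median in both libraries, between percentile 8.33 and 11.5 in replicate 1 and between 4.19 and 36.6 in replicate 2. Among all peaks of a library, promoter or not, each of the 4 stood higher than among promoter peaks. The strongest Pvalb promoter peak, not the same peak in both libraries, was at percentile 36.7 and 23.9. The Dlx5 peak was at 38.9 and 55.9. The Adarb2 peak was at percentile 46.1 and 84.1 and the Lamp5 peak at 45.2 and 76.9.

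Promoters rich in CpG dinucleotides are open in most tissues, so the genes were also set beside genes of the same CpG content. CpG content was the observed over expected ratio within 500 bp of the outermost start site, in deciles of all genes. Pvalb (0.157), Vip (0.287), Lamp5 (0.395) and Adarb2 (0.436) lay in deciles 2 to 5, while Sst (0.577), Dlx1 (0.635), Lhx6 (0.654), Dlx5 (0.743), Dlx6 (0.754) and Dlx2 (0.761) lay in deciles 6 and 8. In decile 6, 86.3% and 84.9% of all genes had a promoter peak, and in decile 8, 94.2% and 93.1%. Sst, Dlx1 and Lhx6 of decile 6 and Dlx2 of decile 8 had none, though Dlx1 had one by other annotations, given below. Averaged over the 10 genes, the shares of their deciles came to 70.2% in each library, above the 40% and 50% counted.

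**Figure D1:**
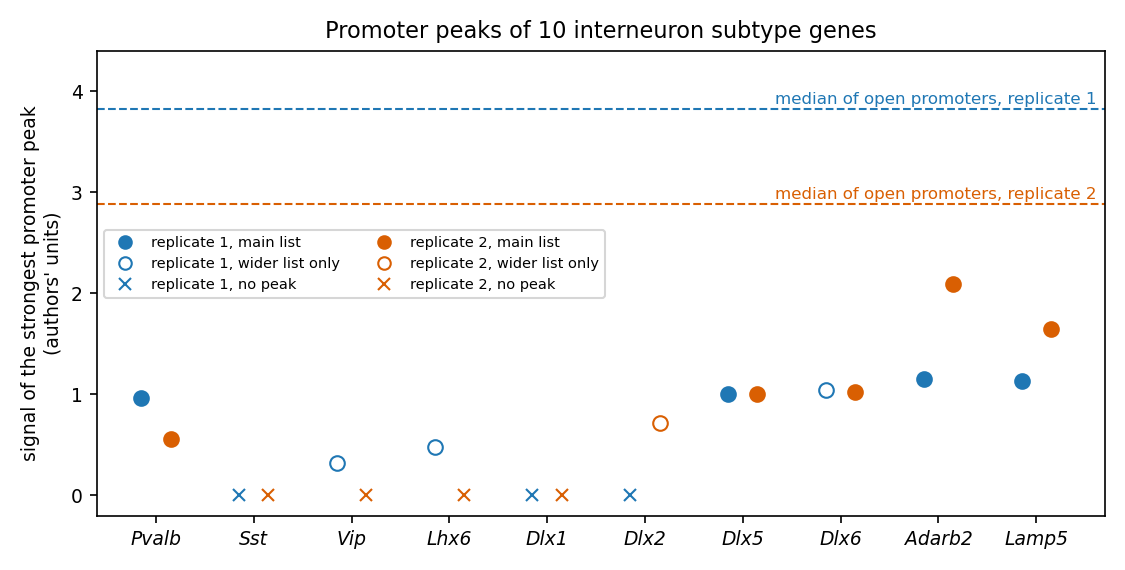
Signal of the strongest promoter peak (y axis, the authors' units) of each of the 10 genes (x axis) in replicate 1 (blue) and replicate 2 (orange). Filled circles are main-list peaks, open circles regions of the wider list only, crosses at 0 mark no promoter peak, and dashed lines are the medians over all genes with one, 3.82 and 2.88; every circle lies below both lines.

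The wider lists added weak regions at some of these start sites. In replicate 1 the count rose to 7 of 10 with Vip (0.323), Lhx6 (0.482) and Dlx6 (1.04), beside 65.0% of all genes. In replicate 2 it rose to 6 of 10 with Dlx2 (0.721), beside 66.0%. The regions at Vip, Lhx6 and Dlx2 were each listed in 1 library only. Sst and Dlx1 had no promoter region in any list by the basic annotation, though Dlx1 had one by other annotations, given below.

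The authors' per-base false discovery rates (q-values, listed up to 0.05) gave a finer view of the same start sites. A promoter base at a q-value of at most 0.001 was found for Pvalb, Dlx5, Dlx6, Adarb2 and Lamp5 in each library, beside 61.2% and 62.1% of all genes. Adarb2 reached the lowest q-value, 6.24e-09 in replicate 1 and 7.28e-41 in replicate 2, with 504 and 1535 promoter bases listed. Lamp5 reached 1.1e-05 and 2.34e-13, with 515 and 1121 bases. The median gene had 583 and 710 promoter bases listed, so both genes were below it in replicate 1 and above it in replicate 2. Dlx6 reached 0.000767 and 3.52e-05, although its replicate 1 region was not in the main list. Any listed promoter base was found for 9 of 10 genes in replicate 1, all but Dlx1, and for 6 of 10 in replicate 2, beside 65.8% and 67.1% of all genes. For Sst this was 9 bases with a best q-value of 0.0392 in replicate 1, and for Vip 61 bases with a best of 0.0217, with none for either gene in replicate 2.

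The windows of the 10 genes held 14 main-list peaks in replicate 1 and 23 in replicate 2, of which 5 and 6 were promoter peaks. A window held at least 1 peak for 8 of 10 genes in each library, beside 79.0% and 82.2% of all genes. The median density was 3.69 and 3.91 peaks per 100 kb of window, against 4.89 and 6.59 for all genes. The densest window was that of Sst in replicate 1, with 18.7 peaks per 100 kb, and that of Dlx5 in replicate 2, with 12.4. Lhx6 had none in either library. The median signal of the window peaks was 1.19 in replicate 1 and 0.607 in replicate 2, against 1.24 and 0.894 for all peaks.

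Of the window peaks, 9 were shared between the libraries by at least 1 bp. That is 64.3% of the peaks of replicate 1 and 39.1% of those of replicate 2, beside 85.8% and 56.1% of all peaks. The shared peaks lay at Pvalb and Sst, with 2 each, and at Vip, Dlx1, Dlx5, Adarb2 and Lamp5, with 1 each. Their signals were within 2-fold of each other in 8 of the 9, a share that was not computed over all shared peaks. They were higher in replicate 1 in 6, higher in replicate 2 in 2 and equal to 2 decimals at Dlx5. The median signal of all main-list peaks was also higher in replicate 1, 1.24 against 0.894. Since the scaling is not stated, these directions are not a result about the genes. The pair beyond 2-fold was the outer Sst peak described below.

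**Figure D2:**
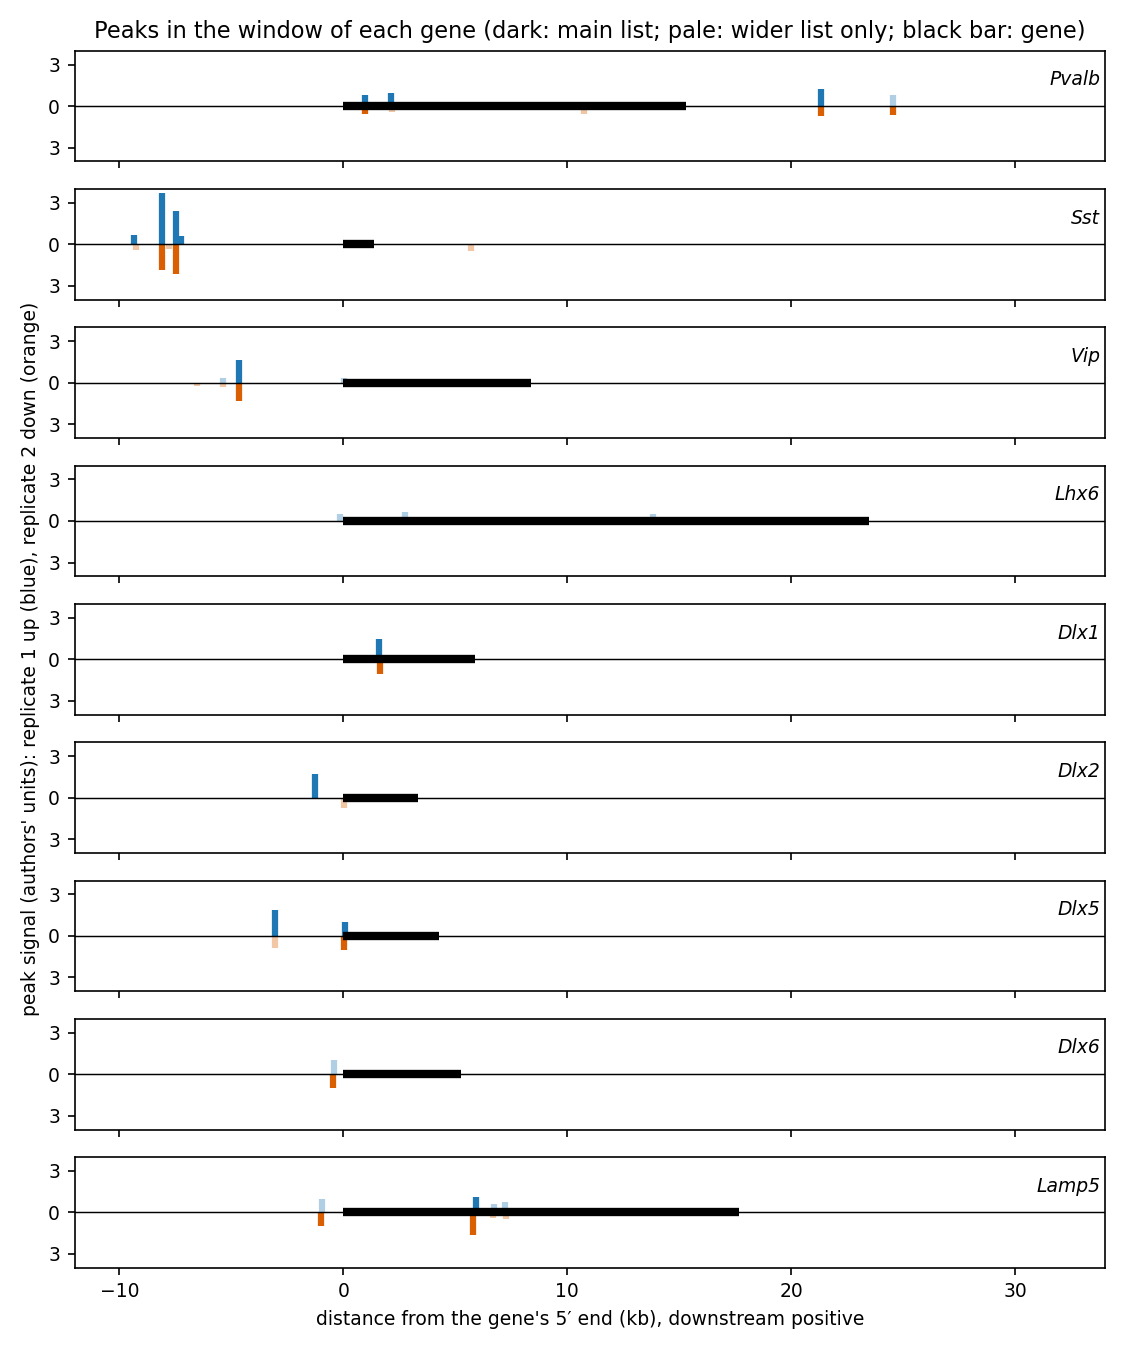
Peaks in the window of each gene other than the much longer Adarb2, plotted by distance from the gene's 5′ end (x axis, kb, downstream positive), with the peak signal (y axis, the authors' units) upward for replicate 1 (blue) and downward for replicate 2 (orange). Dark bars are main-list peaks, pale bars regions of the wider list only and the black bar is the gene; Sst shows its tallest bars upstream of an unmarked start site, and Lhx6 shows pale bars only.

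Sst encodes somatostatin, the peptide of the somatostatin cells (ENSMUSG00000004366.4, chr16:23889573-23890958, minus strand). It had the strongest peak of all 10 windows in each library, upstream of the gene rather than at its start. The outer of the upstream peaks, in intergenic sequence at -8003 bp from the start site, had a signal of 3.74 in replicate 1 and 1.84 in replicate 2 (2.79 ± 1.35). The inner one, at -7383 bp, had 2.39 and 2.13 (2.26 ± 0.188). The outer peak stood at percentile 86.3 and 80.5 of all peaks of its library and the inner at 74.5 and 84.6. Which of them was higher differed between the libraries. The outer peak differed 2.04-fold between the libraries and the inner peak much less. Replicate 1 listed 2 more peaks in the same upstream stretch, at 0.640 and 0.673, and replicate 2 none in its main list.

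Both upstream peaks of Sst are printed because each holds a long footprint that was called in both libraries. They are given on the plus strand of GRCm38.p6, from chr16:23898961-23899140 and chr16:23898341-23898540, with the footprints of replicate 1 in capitals.
Sst outer peak: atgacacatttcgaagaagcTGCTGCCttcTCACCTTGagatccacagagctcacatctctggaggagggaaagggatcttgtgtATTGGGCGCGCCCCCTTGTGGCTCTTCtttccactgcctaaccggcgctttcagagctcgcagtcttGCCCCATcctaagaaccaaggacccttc
Sst inner peak: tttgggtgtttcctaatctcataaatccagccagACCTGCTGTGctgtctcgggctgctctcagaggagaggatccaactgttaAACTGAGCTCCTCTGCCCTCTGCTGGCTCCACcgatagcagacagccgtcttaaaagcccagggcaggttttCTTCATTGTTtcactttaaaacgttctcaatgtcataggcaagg
The long footprint of the inner peak was 32 bp wide in replicate 1 and 27 bp in replicate 2, and held an exact match to the consensus of CTCF, a zinc finger protein that binds at chromatin loop ends. That of the outer peak was 27 and 38 bp wide and held a match with 1 mismatch.

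The promoter of Sst, with no promoter peak in any list, holds a cyclic AMP response element. Its letters, TGACGTCA, are bound by CREB factors, and the somatostatin gene is the textbook case of such an element. The promoter is printed from RefSeq for the gene's own strand (GRCm38.p6, chr16:23890795-23891094, minus strand), with the element in capitals.
Sst promoter: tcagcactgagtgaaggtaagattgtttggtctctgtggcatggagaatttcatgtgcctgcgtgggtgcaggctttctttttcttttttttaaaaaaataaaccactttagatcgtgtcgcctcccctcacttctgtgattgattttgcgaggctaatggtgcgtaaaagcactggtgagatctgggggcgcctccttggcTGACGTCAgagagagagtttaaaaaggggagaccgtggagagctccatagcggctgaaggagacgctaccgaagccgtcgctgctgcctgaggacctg
The element starts at -48 bp from the RefSeq start site, 23890844. The GENCODE start site used for the peak distances, 23890958, lies 114 bp farther out, so that the element starts 66 bp downstream of it. These letters occurred in 1.79% of the 32851 RefSeq promoters of the same length.

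Vip encodes vasoactive intestinal peptide, the marker of another interneuron class (ENSMUSG00000019772.5, chr10:5639218-5647617, plus strand). Its window held a single main-list peak, at the same place in both libraries, 4578 bp upstream in intergenic sequence. The signal was 1.64 in replicate 1 and 1.34 in replicate 2 (1.49 ± 0.209), at percentile 61.8 and 69.1 of all peaks. It is printed because its main footprint, 33 bp wide, had the same ends in both libraries (plus strand, chr10:5634461-5634640, capitals as above).
Vip upstream peak: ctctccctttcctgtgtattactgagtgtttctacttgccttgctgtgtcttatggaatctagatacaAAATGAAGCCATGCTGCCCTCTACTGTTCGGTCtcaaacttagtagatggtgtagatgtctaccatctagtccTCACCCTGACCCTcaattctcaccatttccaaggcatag
The 33 bp footprint held the CTCF consensus with 1 mismatch. Vip and Sst therefore had in common a start site without a main-list peak and a shared upstream peak with a long footprint.

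Pvalb encodes parvalbumin, the calcium-binding protein of fast-spiking cells (ENSMUSG00000005716.16, chr15:78191114-78206400, minus strand). Its CpG ratio, taken around its outer start site at 78206400, was the lowest of the 10 genes. In that decile 10.1% and 12.7% of all genes had a promoter peak. Pvalb had a promoter peak in both libraries, but the CpG ratio around its inner start site was not measured. In replicate 1 the stronger peak (0.963) lay over the inner start site, at position 78204237, where replicate 2 listed 0.44 in its wider list only. The peak shared by both main lists lay 886 bp and 923 bp downstream of the outer start site, with 0.798 and 0.554. These were the peaks nearest to the 1 kb limit from inside, and with a limit of 500 bp Pvalb lost its promoter peak in replicate 2. A shared peak beyond the 3′ end, 19128 bp from the start site in replicate 1, had 1.24 and 0.701.

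The stretch just upstream of the inner Pvalb start site is printed for its footprints, both called in replicate 1 only (plus strand, chr15:78204238-78204354, capitals as above).
Pvalb inner promoter: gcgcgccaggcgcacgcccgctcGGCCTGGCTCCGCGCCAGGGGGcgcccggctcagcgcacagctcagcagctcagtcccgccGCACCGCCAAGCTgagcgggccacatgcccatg
The longer of them, 22 bp wide, came within 2 mismatches of the CTCF consensus. The share of all footprints with so loose a match was not computed.

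Lamp5 encodes a lysosome-associated membrane protein that marks neurogliaform and related cells (ENSMUSG00000027270.14, chr2:136052239-136069917, plus strand). Its promoter peak had 1.13 in replicate 1 and 1.65 in replicate 2 (1.39 ± 0.368), over the start site at position 136057927 or within 133 bp of it. The peak was 540 bp wide in replicate 2 and 228 bp in replicate 1, against medians of 200 and 180 bp for all peaks. It held 8 footprints in replicate 2 and 5 in replicate 1, against a median of 2 per peak. Of these, a pair of positions was called in both libraries, 136058212-136058221 in replicate 2 with 136058216-136058227 in replicate 1, and 136058259-136058266 with 136058263-136058274. Each position overlapped the letters GGGCGG or their complement, the GC box of SP and KLF factors. Lamp5 was one of the genes whose signal was higher in replicate 2.

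A second Lamp5 peak, in the main list of replicate 2 only (0.994; 0.970 in the wider list of replicate 1), is printed because its place depends on the annotation (plus strand, chr2:136051141-136051338, footprints of replicate 2 in capitals).
Lamp5 outer peak: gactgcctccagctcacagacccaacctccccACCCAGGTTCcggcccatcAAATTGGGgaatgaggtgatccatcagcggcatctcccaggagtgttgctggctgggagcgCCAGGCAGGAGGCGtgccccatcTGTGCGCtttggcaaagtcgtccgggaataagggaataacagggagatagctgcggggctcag
It lay at -6589 bp from the start site of the basic annotation, at -901 bp from the nearest one in the comprehensive GENCODE annotation and at -1001 bp from the nearest one in RefSeq. It is thus a distal peak by the first, a promoter peak by the second and just outside the limit by the third.

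Adarb2 encodes a brain-expressed relative of the RNA-editing adenosine deaminases and is widely used as a marker of interneurons of caudal origin (ENSMUSG00000052551.16, chr13:8202866-8768747, plus strand). Its promoter peak had 1.15 in replicate 1 and 2.09 in replicate 2 (1.62 ± 0.665), the second-highest signal of the replicate 2 windows. The promoter is printed from RefSeq (GRCm38.p6, chr13:8202616-8202915, plus strand) with the footprints of replicate 2 in capitals, because, of the 12 RefSeq promoters matched to 8 of these genes, it alone holds the letters TAATTA, the core bound by homeodomain factors such as DLX and LHX proteins.
Adarb2 promoter: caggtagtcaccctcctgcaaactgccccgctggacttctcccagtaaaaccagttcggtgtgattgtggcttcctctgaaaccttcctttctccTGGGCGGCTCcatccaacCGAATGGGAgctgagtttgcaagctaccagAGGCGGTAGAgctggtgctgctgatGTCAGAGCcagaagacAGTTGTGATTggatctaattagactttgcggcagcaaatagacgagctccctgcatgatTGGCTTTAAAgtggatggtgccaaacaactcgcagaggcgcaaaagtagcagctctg
The letters TAATTA occurred in 5.29% of all RefSeq promoters. Here they lie outside the capitals, so no footprint of replicate 2 covered them, and the footprint beginning AGTTGTGA was the one called in both libraries.

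Adarb2 is 565882 bp long, and its window differed most in peak number between the libraries among the 10, with 1 main-list peak in replicate 1 and 10 in replicate 2. Replicate 2 listed 8 main peaks in the introns, between 203 and 542 kb from the start site, and replicate 1 none. Their signals ran from 0.274 to 0.741 with a median of 0.508, and none stood above percentile 39.6 of its library. Replicate 1 had 6 regions in the same gene beyond the promoter in its wider list, 4 of them over a main peak of replicate 2. The window density was 0.171 and 1.71 peaks per 100 kb, in both libraries below the medians of 4.89 and 6.59. Replicate 2 listed more peaks throughout the genome. With the 73221 strongest peaks of each library, the Adarb2 window held 1 peak in replicate 1 and 2 in replicate 2, and all 10 windows together held 14 and 11.

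**Figure D3:**
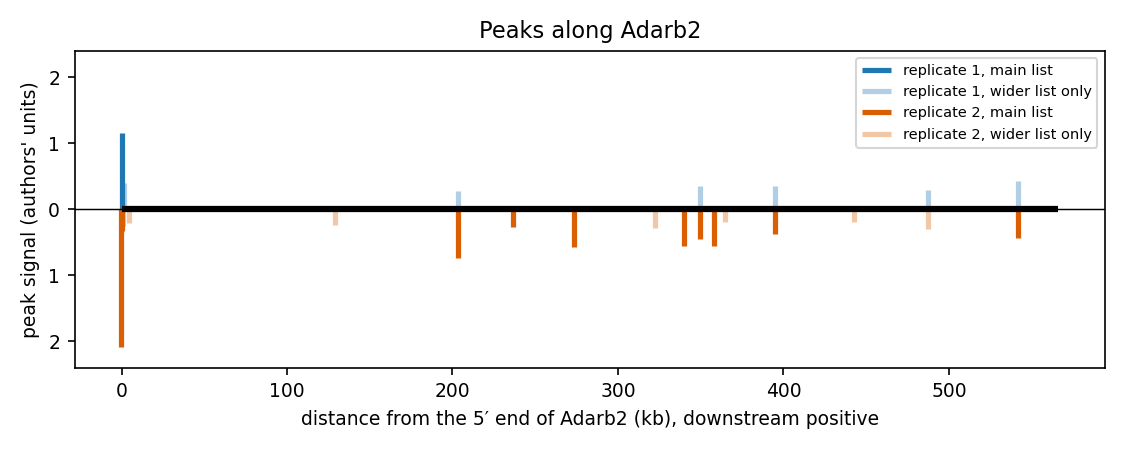
Peaks along Adarb2 by distance from its 5′ end (x axis, kb, downstream positive), with the peak signal (y axis, the authors' units) upward for replicate 1 (blue) and downward for replicate 2 (orange); dark bars are main-list peaks, pale bars regions of the wider list only, and the black bar is the gene. The promoter peaks, 1.15 and 2.09, are the tallest, and the intronic main peaks are all on the side of replicate 2.

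Lhx6 encodes the LIM homeobox factor that specifies interneurons of medial origin (ENSMUSG00000026890.19, chr2:36081953-36105408, minus strand). It had no main-list peak in its window in either library. The nearest one lay 31133 bp from its start site, with 4.92 in replicate 1 and 3.03 in replicate 2, at the promoters of Gm13428, Mrrf and Rbm18. Replicate 1 listed 3 weak regions in the wider list, at 0.482, 0.614 and 0.482, each with a footprint, and replicate 2 listed none. The best q-value anywhere in the Lhx6 window was 0.00445 in replicate 1 and 0.05 in replicate 2, and no base reached 0.001.

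The 4 Dlx genes lie in pairs that point toward each other, Dlx1 with Dlx2 on chromosome 2 and Dlx6 with Dlx5 on chromosome 6. The sequence between the genes of a pair is known for conserved enhancers that are active in developing interneurons. Here neither intergenic stretch, 9426 bp between Dlx1 and Dlx2 and 9236 bp between Dlx6 and Dlx5, held any main-list peak, wider-list region or footprint in either library. Stretches this short are easily empty, since the median over all gene windows was 4.89 and 6.59 peaks per 100 kb. How many other intergenic stretches of this length were empty was not computed, so the absence is not a result about the Dlx genes. What was listed at the Dlx genes lay at their start sites or on their outer sides, save for a peak inside Dlx1 and for weak intronic peaks of Dlx5 in replicate 2, at 0.267 and 0.194.

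Dlx1 (ENSMUSG00000041911.3, chr2:71528113-71533981, plus strand) had 1 peak, shared by both libraries, at 1.46 and 1.07 (1.27 ± 0.276). It lay 1521 bp and 1585 bp inside the gene from the start site of the basic annotation, in exon sequence that is not coding, and so was not a promoter peak. From the nearest start site of the comprehensive annotation it lay at -43 and -52 bp, and from that of RefSeq at 189 and 253 bp. With the comprehensive start sites the count of promoter peaks therefore rose to 5 and 6 of 10, with Dlx1 added, beside 62.5% and 63.4% of all genes. The peak of replicate 1 held 3 footprints, and the CCAAT and TGANTCA (AP-1) letters occurred in it.

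Dlx2 (ENSMUSG00000023391.8, chr2:71543408-71546754, minus strand) had a single main-list peak, in replicate 1 only, with a signal of 1.73. It lay 1191 bp upstream of the start site, just beyond the 1 kb limit, and neither list of replicate 2 overlapped it. It is printed because its 30 bp footprint held an exact match to the CTCF consensus (plus strand, chr2:71547945-71548100, footprints of replicate 1 in capitals).
Dlx2 upstream peak: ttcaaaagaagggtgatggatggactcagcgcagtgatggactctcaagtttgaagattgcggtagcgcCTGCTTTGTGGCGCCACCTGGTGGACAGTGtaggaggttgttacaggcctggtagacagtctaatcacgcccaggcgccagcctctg
At the Dlx2 start site itself, replicate 2 listed 0.721 in its wider list and replicate 1 listed nothing. Dlx2 thus had no place that both libraries listed.

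Dlx5 (ENSMUSG00000029755.10, chr6:6877805-6882085, minus strand) had a promoter peak of the same signal in both libraries, 1.00 (SD 0.00135). The peaks lay over the start site at percentile 38.9 and 55.9 of all peaks, and repeat-masked bases made up 45.5% of the peak of replicate 1 and 31.9% of that of replicate 2. A stronger peak at -2956 bp, 1.90 in replicate 1, was 0.888 in the wider list of replicate 2. It is printed because its footprints were called at nearly the same positions in both libraries although the peak was in 1 main list only (plus strand, chr6:6885041-6885210, footprints of replicate 1 in capitals).
Dlx5 upstream peak: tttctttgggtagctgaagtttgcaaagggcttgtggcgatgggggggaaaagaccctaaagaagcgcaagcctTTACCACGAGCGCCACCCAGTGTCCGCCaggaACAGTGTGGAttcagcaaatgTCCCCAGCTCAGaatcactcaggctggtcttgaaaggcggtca
The longest of these, 28 bp wide in replicate 1, was split into 10 and 15 bp in replicate 2 and came within 2 mismatches of the CTCF consensus. As at Pvalb, the share of all footprints with so loose a match was not computed.

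Dlx6 (ENSMUSG00000029754.13, chr6:6863334-6868568, plus strand) had a promoter peak 364 bp upstream of its start site, with 1.02 in the main list of replicate 2 and 1.04 in the wider list of replicate 1. The peak lies in an intron of the antisense gene Dlx6os1. It is printed because a footprint of replicate 2 covered, and one of replicate 1 overlapped, the cyclic AMP response element TGACGTCA, the same letters as in the Sst promoter (plus strand, chr6:6862813-6862970, footprints of replicate 2 in capitals).
Dlx6 upstream peak: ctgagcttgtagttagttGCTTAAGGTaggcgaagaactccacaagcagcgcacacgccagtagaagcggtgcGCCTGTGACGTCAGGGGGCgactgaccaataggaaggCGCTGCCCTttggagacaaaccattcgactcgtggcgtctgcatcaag
The footprint was 19 bp wide in replicate 2 and 13 bp in replicate 1. The letters occurred within 200 bp at the centre of 0.824% of all main peaks of replicate 2 and 1.16% of those of replicate 1. Among the 10 windows, these letters met a footprint at Dlx6 only.

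The windows held 50 footprints in replicate 1 and 66 in replicate 2, a median of 9.32 and 9.81 per 100 kb against 18.6 and 24.3 for all genes. All 10 genes had a footprint in replicate 1 and all but Lhx6 in replicate 2. The share of all genes with a footprint was not computed, but the median window of all genes held 10 and 13 footprints. The widths ran from 7 to 33 bp and from 7 to 38 bp, with medians of 10 and 9.5 bp, close to the 10 and 9 bp of all footprints. Main-list peaks held 34 and 45 of them, and regions of the wider list only held 16 in each library. The remaining 5 footprints of replicate 2 lay in no region of either list. This split was not computed over all footprints. A footprint was found in 92.9% of the window peaks of replicate 1 and 73.9% of those of replicate 2, beside 89.2% and 86.3% of all peaks. The footprints were shared between libraries in 34% and 27.3% of cases, beside 51.6% and 35.4% of all footprints.

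Long footprints of 25 bp or more numbered 6 in replicate 1 and 3 in replicate 2. That was 12% and 4.55% of the footprints in these windows, beside 10.6% and 6.92% of all footprints. The CTCF consensus, with at most 1 mismatch, occurred in 4 of the 6 and 3 of the 3, at Sst, Vip and Dlx2. Over all long footprints the share was 41.5% and 37.4%, so such matches are frequent at this width everywhere in these data. A separately searched CTCF core gave a different picture of single peaks. It occurred within 200 bp at the centre of the outer Sst peak and the Pvalb peak 886 bp from the outer start site in both libraries and of the Dlx2 peak in replicate 1, but in neither the inner Sst peak nor the Vip peak. That was 3 of 14 and 2 of 23 window peaks, beside 6.30% and 3.90% of all main peaks. The outer Sst peak thus held the core but not an exact consensus, and the inner one the exact consensus but not the core. The consensus, which has degenerate letters, was added after the long footprints had been seen. The 3 long footprints of replicate 2 were the outer and inner Sst footprints and that of Vip, each of which was also long in replicate 1.

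**Figure D4:**
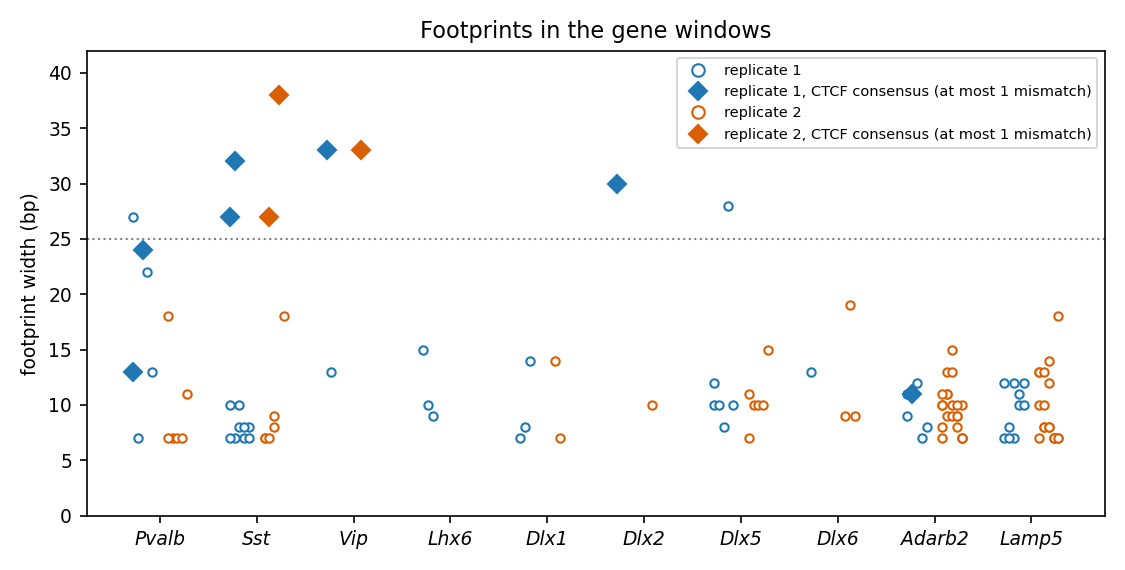
Width in bp (y axis) of every footprint in the windows of the 10 genes (x axis) in replicate 1 (blue) and replicate 2 (orange); diamonds held the CTCF consensus with at most 1 mismatch, circles did not, and the dotted line is at 25 bp. Above the line lie diamonds of Sst and Vip in both libraries and of Dlx2 in replicate 1, and circles of Pvalb and Dlx5 in replicate 1.

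Other short motifs were searched on both strands in 200 bp at the centre of each main peak. The CCAAT letters occurred in 6 of 14 window peaks in replicate 1 and 11 of 23 in replicate 2, beside 22.6% and 23.2% of all main peaks. The AP-1 letters TGANTCA occurred in 2 of 14 and 7 of 23, beside 10.5% and 15.5%, and 5 of those 7 lay in introns of Adarb2. The GC box GGGCGG occurred in 1 of 14 and 2 of 23, beside 23.8% and 15.2%. The homeodomain core TAATTA occurred in 1 peak in each library, the Adarb2 promoter, beside 2.10% and 3.68%. The peaks are few and were not independent between the libraries, and these counts describe letters, not binding.

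The other lists place these genes among the cell types of the tissue. The enzymes and transporters of GABA, which all interneurons share, had a promoter peak at 2 of 4 genes in both libraries, among them Gad1 (1.10 ± 0.0616), with none at Gad2 or Slc32a1 in the main lists and one at all 4 in the wider lists. Interneuron transcription factors had one at 8 of 15 in replicate 1 and 10 of 15 in replicate 2, among them Maf (2.01 ± 0.255), with none at Lhx8 or Nkx2-1. Other interneuron markers had one at 14 and 13 of 20, led by Id2 (6.75 ± 1.10) and Cck (1.80 ± 0.201), with none at Chrna2 or Crh. Excitatory neuron genes had one at 16 of 17 in both libraries, led by Tle4 (10.5 ± 0.179) and Camk2a (4.28 ± 0.0109), with none at Fezf2. Of the 10 interneuron subtype genes, 4 and 5 had a promoter peak, beside 60.7% and 61.2% of all protein-coding genes.

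Of the lists for other cells, that of oligodendrocytes had a promoter peak at 8 of 10 in both libraries, led by Olig1 (2.02 ± 0.406) and Myrf (1.91 ± 1.38), with none at Sox10. The astrocyte list had 6 and 7 of 10, led by Glul (3.71 ± 0.0908) and Aldoc (2.61 ± 0.0542), with none at Aldh1l1 or Gfap. The microglia list had 4 of 10 in both, among them Irf8 (1.58 ± 0.377), with none at C1qa or C1qb. The endothelium list had 4 and 2 of 10, led by Slc2a1 (3.18 ± 1.10) and Mfsd2a (1.65 ± 0.128), with none at Cdh5 or Cldn5. Genes of striatal and olfactory bulb neurons, many of them also GABA cells, had 8 of 10 in both, led by Rgs9 (4.22 ± 1.66), with none at Drd2 or Th. Set beside the mean share of their CpG deciles, the subtype genes (40% and 50%, against 70.2%), the GABA genes (50%, against 85.9% and 85.3%) and the interneuron factors (53.3% and 66.7%, against 83.5% and 83%) lay below it. So did the endothelium list (40% and 20%, against 54.9% and 55.8%). The excitatory (94.1%, against 75.9%), oligodendrocyte (80%, against 52.8% and 53.5%) and striatal and olfactory bulb lists (80%, against 72.6% and 72.7%) lay above it, and so, by less, did the other interneuron markers (70% and 65%, against 63.6% and 64.2%) and the microglia list (40%, against 36.6% and 38.7%). The astrocyte list (60% and 70%, against 60.6% and 61.7%) lay below it in replicate 1 and above it in replicate 2. A share below that of the CpG deciles was thus not particular to the interneuron lists.

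**Figure D5:**
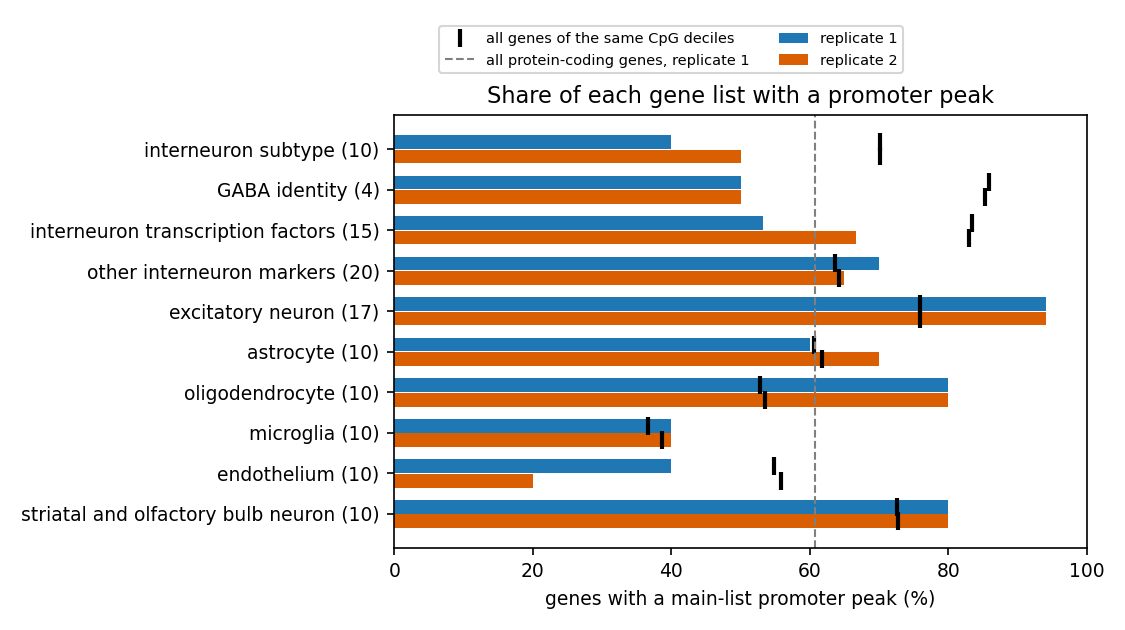
Share of each gene list with a main-list promoter peak (x axis, percent; genes per list in brackets on the y axis) in replicate 1 (blue bars) and replicate 2 (orange bars), with the mean share of genes of the same CpG deciles (black ticks) and the share of all genes in replicate 1, 60.7% (dashed line). The bars of the interneuron subtype, GABA identity, interneuron factor and endothelium lists stop short of their ticks in both libraries, the astrocyte bars lie on either side, and those of the other 5 lists pass theirs.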

How the data were processed

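DNase-seq had been done on 2 libraries of 1 group. Peaks, footprints and per-base q-values were made by the authors per library on mm10, and the peak signal is their value per peak, per the deposited notes. The q-value files list bases up to 0.05, and the deposited footprint files repeat 1 score in every row, so only footprint positions were used. The aligner, the callers, their thresholds and the read depth were not given in the sources used here, so the depth behind single values is unknown.

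The shorter peak list was taken as main. Own start sites came from GENCODE M21 basic, sequences from RefSeq GRCm38.p6, and RefSeq promoters matched 8 of 10 genes, not Dlx5 and Dlx6. Files were joined with Python 3.11.15, pandas 2.3.3, numpy 2.4.6 and pysam 0.24.0, after a test on simulated data in which 200 of 200 planted promoters among 1000 genes were called. The 17 short motifs searched on both strands were the homeodomain core TAATTA, the cyclic AMP element TGACGTCA, the AP-1 letters TGANTCA, the E-box letters CAGATG, the second E-box with letters CAGCTG, the MAF letters TGCTGAC, the MEF2 core TAAAAATA, the SOX letters ACAATG, the octamer ATGCAAAT, the EGR letters GCGTGGGCG, the GC box GGGCGG, the box of letters CCAAT, the promoter box with letters TATAAA, the REST letters TTCAGCACC, the RFX letters GTTGCC, the NFI palindrome and a CTCF core that overlaps the CTCF consensus. Results are given for the homeodomain, CRE, AP-1, GC and CCAAT letters, the CTCF core and the CTCF consensus. With 1 group of 2 libraries no test was made. All 10 genes are named, and of each other list the 2 strongest promoters and the first 2 in alphabetical order without one, except that some of these are not reported here. The genes and lists were chosen with earlier results of these data known. Alternatives were the wider list, other promoter limits, windows, overlaps and annotations, an equal number of peaks and each library alone. The comprehensive and RefSeq start sites and the CTCF consensus were added after seeing the data.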

Additional observations from a re-analysis of the deposited data

How the results depend on the processing

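Counts were compared with the main setting by a factor of 1.5, and signals by the SD of both libraries. The shared percentages were compared with a binomial interval, 38.8% to 83.7% in replicate 1 and 22.2% to 59.2% in replicate 2. By these limits, 27 of the alternatives for the main results stayed and 6 did not. The promoter count was compared only for genes with a peak in both libraries, 4 in the main lists and 5 in the wider lists. In replicate 1 alone it went from 4 to 7 of 10 with the wider list, beyond the factor of 1.5. That count passed from below the share of all genes, 60.7%, to above it, 65.0%. In replicate 2 it went from 5 to 6 of 10 and stayed below, beside 61.2% and 66.0%. With 1 library left out, the summed signal stays within its SD by construction. The 18 alternatives for single genes all stayed, but nearly all found the same signal again and so could not move. Only Pvalb with the outermost start site had another value, 0.676 against 0.759. A gene was also included only where both libraries kept its promoter peak. Pvalb was thus left out with the 500 bp limit and with equal numbers of peaks. The mean number of peaks in the windows, 18.5 ± 6.36 (SD, n = 2), was 35 with the wider list, 44.5 with 50 kb on each side and 11 in the gene body alone. The mean number of footprints, 58 ± 11.3, was 38.5 when only those wholly inside a main peak were counted and 30.5 in the gene body alone. These settings count more or fewer bases, regions or footprints by construction. The share of replicate 2 peaks that were shared, 39.1%, was 72.7% (8 of 11) when both libraries were limited to the same number of strongest peaks, which leaves fewer peaks in replicate 2 (14 and 11 in the windows, against 14 and 23). With each library alone, genes with a promoter peak ran from 4 to 5, their summed signal from 4.24 to 6.31 (5.28 ± 1.46 over both), peaks from 14 to 23 and footprints from 50 to 66. With a 500 bp limit, or equal numbers of peaks, 3 genes had a promoter peak in both libraries in place of 4, since Pvalb dropped out of replicate 2. The share of all genes was not computed for these 2 settings, so the change cannot be set beside it. No paired analysis was possible because the samples form 1 group.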
